A study of Mus musculus with 12 samples.

Results

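Bisulfite sequencing of polyadenylated RNA from 6 mouse tissues gave a table of 2498 cytosines in 1964 genes. Described here are 5 of those genes, Entpd5, Gpr137, Gid4, Map4k4 and Plekha6, with all 9 of their listed cytosines: 2 in Entpd5, 2 in Gpr137, 3 in Gid4 and 1 each in the others. The genes were selected on their measured level in heart, which at 1 or more of their sites stood above the other tissues. Heart against other tissues is therefore a description of the members and carries no test. Muscle against the remaining 4 tissues was not the contrast used for the choice and was tested. The levels of these tissues still entered the choice, as the values that heart stood above, so the test is not fully independent of it. Every library came from wild-type C57BL/6 mice of 8 to 10 weeks. The heart and liver columns of the table rest on 1 female library each, the muscle column on 4 female libraries, and the columns of lung, small intestine and spleen on a female and a male library each, 12 libraries in all. There was 1 deposited value per site and tissue, so no value carries an error between animals, and tissue cannot be told apart from the sex mix of its libraries. Each column also averages over all cells of its tissue, so a larger share of a cell type and a higher level within its RNA cannot be told apart.

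5-Methylcytosine (m5C) is a cytosine with a methyl group on carbon 5 of the ring. In mRNA it is placed mainly by enzymes of the NSUN family, and proteins such as ALYREF and YBX1 are known to bind it. Bisulfite turns unmethylated cytosine into uracil, which is read as T, and leaves m5C as C. The level of a site is the share of reads that stayed C, so tightly folded RNA that escapes conversion is counted in it as well. The members have unlike jobs. Entpd5 is a nucleoside diphosphatase of the endoplasmic reticulum that serves the folding cycle of glycoproteins. Gpr137 is a membrane protein of lysosomes linked to control of the kinase complex mTORC1. Gid4 is the substrate receptor of the CTLH ubiquitin ligase, known in human cells for recognising proteins that begin with proline. Map4k4 is a kinase of the Ste20 family upstream of the JNK pathway, and Plekha6 is a pleckstrin homology domain protein of a family that binds the junction protein Pdzd11.

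The 9 sites lay in different stretches of their genes, on the build mm10 of the table and RefSeq spans of GRCm38.p6. Exon, intron and UTR boundaries were not analysed here, so places are given as distances to the ends of the gene. Entpd5 spans chromosome 12 from 84373875 to 84409029 on the minus strand. Its upstream site at 84392535 lay 16.5 kb from the 5′ end, near the middle of the gene, and its downstream site at 84376175 lay 2300 nt from the 3′ end. Gpr137, chromosome 19 from 6938057 to 6942450 on the minus strand, had its upstream site at 6940636 and its downstream site at 6939039, which is 982 nt from the 3′ end. Gid4, chromosome 11 from 60417145 to 60445277 on the plus strand, had a pair of sites near its 5′ end and another at the far end. The first, at 60417554, and the second, at 60417763, lay 409 and 618 nt from the 5′ end, 209 nt apart. The third, at 60445009, lay 268 nt from the 3′ end. The Map4k4 site, chromosome 1 at 40024665 on the plus strand, lay 1645 nt from the 3′ end of a gene of 125 kb. The Plekha6 site, chromosome 1 at 133266574 on the plus strand, lay 36.9 kb from the 3′ end. No listed cytosine lay closer to any member site than those 209 nt between the first and second Gid4 sites. The first and second Gid4 sites also fell inside the span of Atpaf2, an assembly factor of the mitochondrial ATP synthase, and the Plekha6 site inside that of the lncRNA Gm19461. Nothing in the labels says whether the libraries kept the strand, so reads of such overlapping genes may share these counts.

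**Figure D1:**
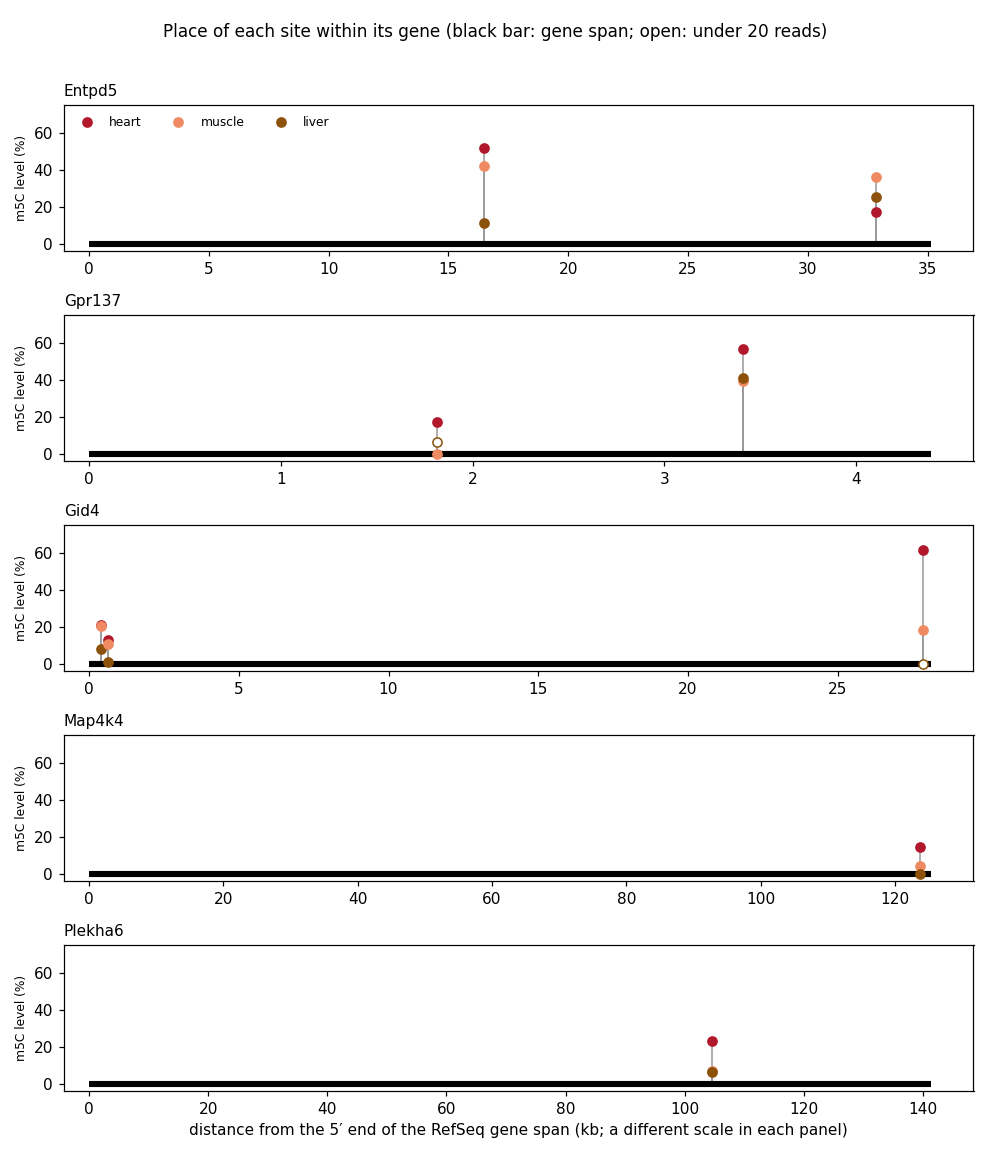
Place of the 9 sites along their genes. The horizontal axis is the distance in kb from the 5′ end of the RefSeq gene span (black bar, with a scale of its own in each panel) and the vertical axis the m5C level in percent in heart, muscle and liver; open circles had under 20 reads. Entpd5 shows the heart level on top at its middle site, 52.0%, and under muscle and liver at its downstream site, 17.5%.

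Depth differed between tissues and between members. A level below rests on at least 20 reads unless its reads are given as fewer, and bracketed intervals are 95% Wilson intervals that cover counting error only. Of the 54 cells that 9 sites and 6 tissues make, 45 had 20 reads or more, 5 had 10 to 19 and 4 were blank. All 6 tissues reached 20 reads at 6 sites, which were the Entpd5 upstream, Gpr137 downstream, first and second Gid4, Map4k4 and Plekha6 sites. Coverage ran from 10 reads at the third Gid4 site in spleen to 4354 at the Entpd5 upstream site in liver. Over the filled cells of all listed sites, blanks left out, the median coverage was lowest in spleen, at 56 reads, and in lung, at 65. It lay between 144 and 223 in the other tissues. As a check of tissue labels, Myh4 and Myh1, myosins of fast skeletal muscle, had 1372977 reads at their sites in muscle and no filled cell in heart. The Alb site, in the gene of serum albumin, had 1177520 reads in liver and at most 66 elsewhere. The Ms4a1 site, in a B cell gene, was filled in spleen alone. Of the small intestine markers, the Defa24 site was filled in small intestine alone. The Lyz1 site at 117287968 was filled in every tissue, with 8753 reads in small intestine and at most 545 elsewhere. No listed site lay in the 7 heart genes or the 5 lung epithelium genes on the marker list. The heart and lung labels could therefore not be checked this way.

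**Figure D2:**
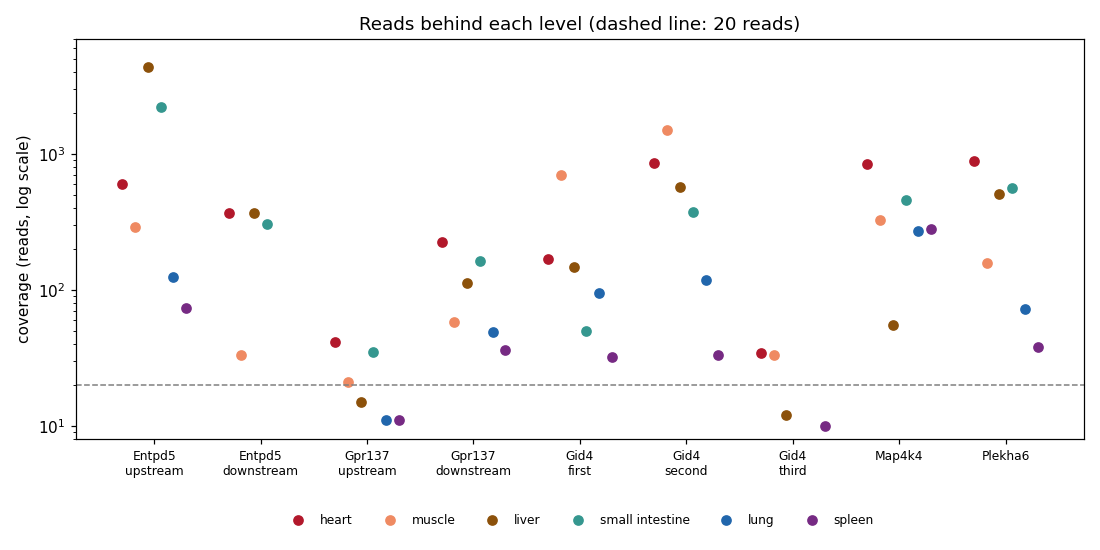
Coverage of each member site by tissue, in reads on a log axis. Points are the 6 tissue columns, and the dashed line marks 20 reads. Liver has the deepest value, 4354 reads at the Entpd5 upstream site, and lung and spleen lie lowest at the sites of Entpd5, Gpr137 and Plekha6 that they cover.

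Among tissues with at least 20 reads, heart had the highest level at 8 of the 9 sites and did not at the downstream site of Entpd5. At the third Gid4 site only heart and muscle reached that depth, and at the Gpr137 upstream site 3 tissues did. Among the 6 sites covered everywhere, muscle came next after heart at 4. The Wilson intervals of heart and muscle overlapped at 5 of the 9 sites and were apart at 4. Overlap here is a description and does not show equal levels. The shares of all sites with heart highest, muscle next or these intervals apart were not computed. Members were chosen on their heart level, so these counts are no result about them. Of the 4 sites with intervals apart, heart lay above muscle at the third Gid4, Map4k4 and Plekha6 sites and below it at the Entpd5 downstream site. Over all 802 sites covered in 6 tissues, 20.9% were called higher in heart than in the other 5, which is the background from which the members were picked and from which nothing is read about them. By size of that difference the Entpd5 upstream site ranked 4 and the Gpr137 downstream site 5 of 802, Plekha6 66, the first Gid4 site 84, Map4k4 117 and the second Gid4 site 175.

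**Figure D3:**
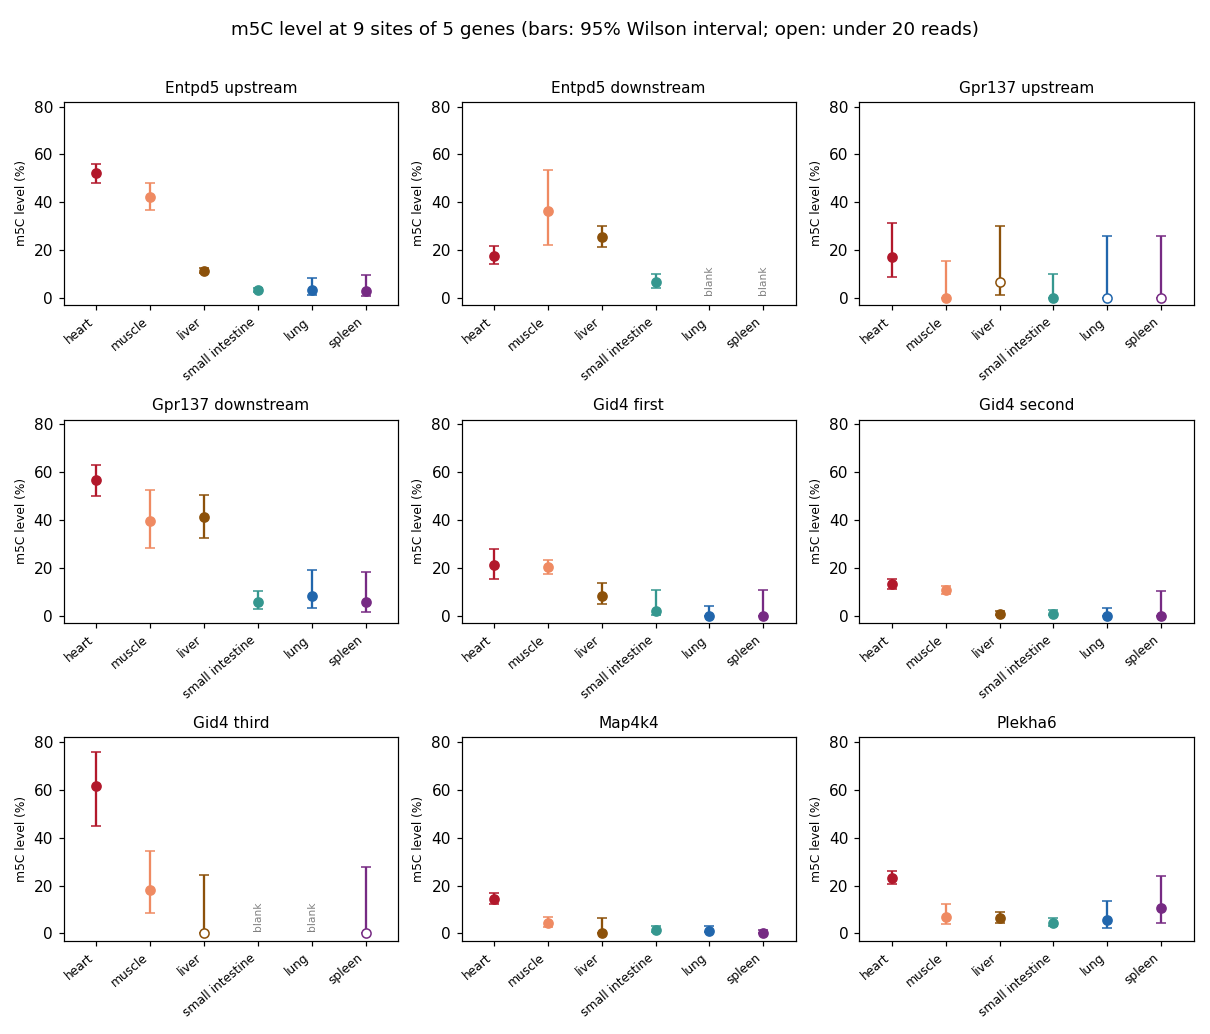
m5C level in percent at each of the 9 sites in heart, muscle, liver, small intestine, lung and spleen. Points are the deposited levels, bars 95% Wilson intervals, open circles values from under 20 reads, and the word blank marks cells without a value. Muscle lies near heart at the first Gid4 site, 20.3% against 20.96%, and far below it at Plekha6, 7.01% against 23.2%.

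At the sites of Entpd5, which are 16360 nt apart, heart took different places while muscle stayed above liver and liver above small intestine. At the upstream site 312 of 600 heart reads stayed C, a level of 52.0% (48.0 to 56.0). Muscle followed with 123 of 291 reads, 42.3% (36.7 to 48.0). Liver had 492 of 4354 reads, 11.3% (10.4 to 12.3). The striated muscle tissues thus both stood well above liver, with heart 9.73 points above muscle. Small intestine was at 3.09% of 2200 reads (2.45 to 3.90), lung at 3.25% of 123 (1.27 to 8.06) and spleen at 2.74% of 73 (0.755 to 9.45), and the intervals of these 3 overlapped one another. At the downstream site muscle was highest, with 12 of 33 reads, 36.4% (22.2 to 53.4). Liver had 93 of 368 reads, 25.3% (21.1 to 29.95), and its interval overlapped those of muscle and heart. Heart had 64 of 366 reads, 17.5% (13.9 to 21.7). Heart, highest at one site of the gene, stood behind muscle and liver at the other. Small intestine was lowest with 20 of 306 reads, 6.54% (4.27 to 9.88), and lung and spleen were blank. From the upstream to the downstream site the level was lower in heart and higher in liver and small intestine, with intervals apart in each. The muscle intervals overlapped.

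At the downstream site of Gpr137, liver and muscle had nearly the same level. At its downstream site heart had 128 of 226 reads, 56.6% (50.1 to 62.9). Liver had 46 of 112 reads, 41.1% (32.4 to 50.3), and muscle 23 of 58, 39.7% (28.1 to 52.5). Heart was highest, but its interval overlapped those of liver and muscle, and these 3 tissues stood apart from the rest. Lung was at 8.16% of 49 reads (3.22 to 19.2), spleen at 5.56% of 36 (1.54 to 18.1) and small intestine at 5.52% of 163 (2.93 to 10.2). At the upstream site, 1597 nt away, heart had 7 of 41 reads, 17.1% (8.53 to 31.3). Muscle had 0 of 21 reads, which allows a level of up to 14.3%, and small intestine 0 of 35, which allows up to 8.57%. Liver had 1 of 15 reads, and lung and spleen 0 of 11 each. The intervals of heart and muscle overlapped at this depth, and their difference was not tested.

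Gid4 had its highest heart level near the 3′ end, and near the 5′ end heart and muscle had like levels. At the first site heart had 35 of 167 reads, 20.96% (15.47 to 27.7), and muscle 141 of 695, 20.3% (17.5 to 23.4). At the second site heart had 112 of 859 reads, 13.04% (10.95 to 15.46), and muscle 160 of 1496, 10.7% (9.23 to 12.4). Heart and muscle differed by 0.67 and 2.34 points at these sites, with overlapping intervals at both. In liver 12 of 146 reads, 8.22% (4.76 to 13.8), stayed C at the first site and 4 of 572, 0.699% (0.272 to 1.78), at the second. Small intestine had 1 of 50 reads, 2% (0.354 to 10.495), and 3 of 370, 0.811% (0.276 to 2.36). Lung had 0 of 95 and 0 of 117 reads, which allow up to 3.16% and 2.56%, and spleen 0 of 32 and 0 of 33, which allow up to 9.38% and 9.09%. The first site was thus above the second in heart, muscle and liver, with intervals apart in each and nearest to touching in heart. At the third site heart had 21 of 34 reads, 61.8% (45.0 to 76.1), and muscle 6 of 33, 18.2% (8.61 to 34.4). These intervals were apart, and the difference of 43.6 points was the largest excess of heart over muscle among 1645 sites with 20 reads in both. Gid4 was chosen for its heart level, so this rank is a description and no result about the gene. Liver had 0 of 12 reads and spleen 0 of 10, which allow up to 25% and 30%, and lung and small intestine were blank. Within the span of 1 gene, then, heart and muscle intervals overlapped at the 5′ pair. They were apart at the 3′ site, on 34 and 33 reads. The 5′ pair also lies in the span of Atpaf2, whose reads may share its counts.

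Map4k4 and Plekha6 had 1 site each, and at both heart stood apart from muscle. At Map4k4, 121 of 841 heart reads stayed C, 14.4% (12.2 to 16.9). Muscle had 14 of 328, 4.27% (2.56 to 7.04). Heart was the only tissue above 10% there. Small intestine was at 1.54% of 454 reads (0.749 to 3.15) and lung at 1.12% of 269 (0.380 to 3.23). Liver had 0 of 55 reads, which allows up to 5.45%, and spleen 0 of 279, which allows up to 1.08%. At Plekha6 heart had 205 of 883 reads, 23.2% (20.6 to 26.1). The other 5 tissues lay between 4.30% and 10.53% with intervals that all overlapped one another, and the spleen interval also overlapped that of heart. Spleen had 4 of 38 reads, 10.53% (4.17 to 24.1), muscle 11 of 157, 7.01% (3.96 to 12.1), and liver 32 of 503, 6.36% (4.54 to 8.84). Lung had 4 of 72 reads, 5.56% (2.18 to 13.4), and small intestine 24 of 558, 4.30% (2.91 to 6.32). Heart thus exceeded muscle by 10.1 points at Map4k4 and 16.2 at Plekha6.

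**Figure D4:**
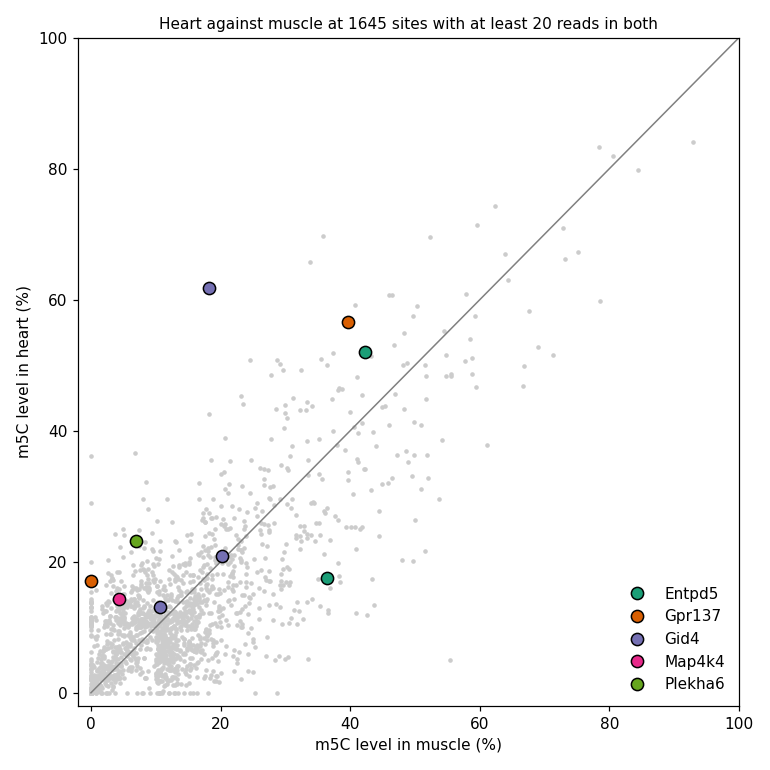
m5C level in heart against muscle, both in percent, at 1645 sites with at least 20 reads in both (grey points), with the 9 member sites in colour and the line of equal levels. The third Gid4 site lies farthest above the line, at 61.8% and 18.2%, and the downstream Entpd5 site lies below it, at 17.5% and 36.4%.

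Across the table, 5.35% of those 1645 sites were called higher in heart than in muscle and 10.0% lower. Such a call asked for 10 points or more between the levels and for a Fisher's exact p, adjusted over all sites, below 0.05. The median heart minus muscle difference was -0.31 points. Since the choice of members used this contrast, these shares are given as background to their values only.

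Whether muscle followed heart was asked by setting muscle against liver, small intestine, lung and spleen, with heart left out. Muscle was called higher at 4 of the 6 testable member sites, the Entpd5 upstream, Gpr137 downstream and first and second Gid4 sites, and lower at none. The call needed an adjusted p under 0.05 by Fisher's exact test, two-sided, on unconverted and converted reads, and a difference of at least 10 points from the mean of the other 4 levels. Of all 806 sites tested this way 42.9% were called higher, with a median difference of 8.88 points, so muscle stood above these tissues at a large share of listed sites. Muscle was the highest of these 5 tissues at 4 of the 6 sites, against 67.4% of all 806. That count is near the background and no result about the members. It holds the Entpd5 upstream, first and second Gid4 and Map4k4 sites. At the Gpr137 downstream site liver lay above muscle, 41.1% against 39.7%. The Entpd5 upstream site had the widest gap, 42.3% in muscle against a mean of 5.10%, 37.2 points (Fisher's exact adjusted p = 2.9e-50), rank 17 of 806. The Gpr137 downstream site had a gap of 24.6 points (Fisher's exact adjusted p = 4.6e-04). Without small intestine the gap was still 21.4 points but the call was lost, with a Fisher's exact adjusted p of 0.0957, the highest of 8 alternatives whose lowest was 1.6e-09. The first Gid4 site had a gap of 17.7 points (Fisher's exact adjusted p = 5.5e-13) and the second one of 10.3 (Fisher's exact adjusted p = 2.7e-30), close to the minimum difference. At Map4k4 muscle was 3.60 points above the mean of the others, which passed the test (Fisher's exact adjusted p = 4.0e-04) but not the minimum difference. At Plekha6 the difference was 0.32 points (Fisher's exact adjusted p = 0.525). These tests compare deposited columns and cover counting error, not differences between animals.

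**Figure D5:**
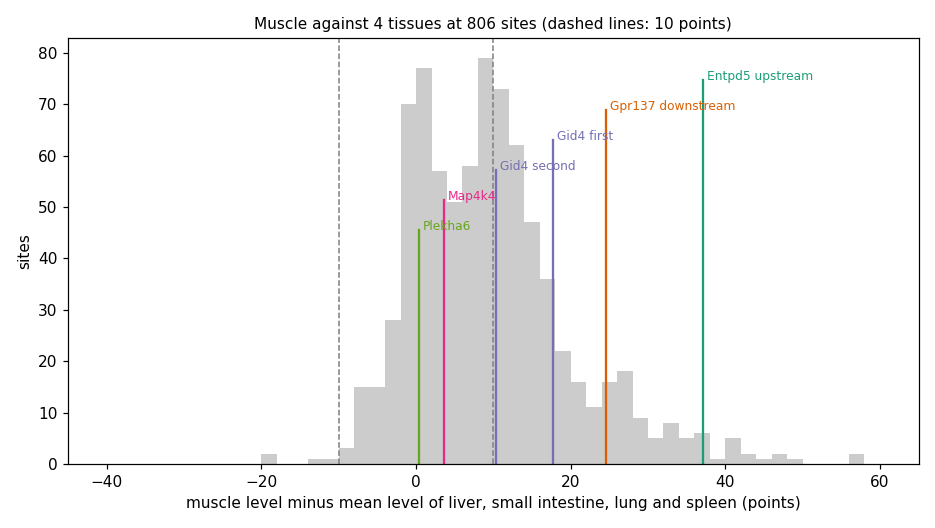
Muscle level minus the mean level of liver, small intestine, lung and spleen, in points, at 806 sites covered in these 5 tissues (histogram), with the 6 member sites as coloured lines whose height has no meaning. Dashed lines mark 10 points. Plekha6 at 0.32 and Map4k4 at 3.60 lie inside them, and Entpd5 upstream at 37.2 lies in the right tail.

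Single pairs of tissues brought in sites that lacked reads somewhere. The members' counts are given beside the share of all sites called in the same pair, and those near that share are no result about the members. Against liver, muscle was called higher at 2 of 7 member sites, with a background of 27.1% of 1372 sites. These were the Entpd5 upstream site, by 31.0 points (25.3 to 36.8), and the first Gid4 site, by 12.1 points (5.80 to 16.7). The second Gid4 site missed the minimum difference narrowly, at 9.996 points (8.17 to 11.7; Fisher's exact adjusted p = 5.8e-18). At the Gpr137 downstream site muscle minus liver was -1.42 points, with an interval from -16.2 to 14.1 that leaves room for a difference either way. At the Entpd5 downstream site it was 11.1 points (-3.84 to 28.6; Fisher's exact adjusted p = 0.319), and the 33 muscle reads set that width. For Map4k4 and Plekha6 the differences from liver were 4.27 (-2.48 to 7.04) and 0.64 points (-3.29 to 6.06). Against small intestine muscle was called higher at 4 of 8 member sites (background 37.4% of 1397), among them the Entpd5 downstream site by 29.8 points (15.3 to 47.0; Fisher's exact adjusted p = 1.6e-05). Against lung it was called higher at 4 of 6 (background 42.2% of 1097) and against spleen at 3 of 6 (background 42.6% of 937). In all 4 pairs the Entpd5 upstream and first Gid4 sites were called higher, and in no pair were Map4k4 or Plekha6. The largest Plekha6 difference in either direction was -3.52 points against spleen (-17.5 to 4.63). The second Gid4 site was called higher against lung and not against spleen, where 33 reads gave a difference of 10.7 points (0.166 to 12.4; Fisher's exact adjusted p = 0.0701). Each interval here is a 95% Newcombe interval of the difference between columns.

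The authors' deposited table marks a member site as an m5C site in heart at 8 of 9 sites, in muscle at 5, in liver at 3 and in lung, spleen or small intestine at none. The members were chosen for their heart level, and the share of all listed sites called was not computed. These counts are therefore no result about the members. The heart exception is the Entpd5 downstream site, which the authors' deposited table gives a p-value of 1 and no call in heart in spite of 64 unconverted reads of 366. Levels of at least 10% on at least 20 reads occurred in 19 member cells, and the authors' deposited table called 16 of them. The other uncalled cells were the third Gid4 site in muscle, with 6 of 33 reads, and Plekha6 in spleen, with 4 of 38. Across the table, 9.51% of such heart cells and 13.5% of such muscle cells were not called. The rule behind these calls is not stated in the labels or the file headers.

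Other sites with like profiles were found among those covered in 6 tissues, as the smallest root mean square difference of the 6 levels. The Map4k4 and second Gid4 profiles had close matches. Map4k4 was nearest to Ybx3 at 131370354 (0.890 points, with 13.5% in heart and 5.37% in muscle), Pdk1 (0.952) and Kif1c (1.27). The second Gid4 site was nearest to Faf1 (0.818 points, with 11.3% in heart and 11.2% in muscle), another Ybx3 site (0.883) and Mreg (0.976). For the first Gid4 site the nearest were Atf5 (1.59 points, with 19.9% in heart and 20.2% in muscle), Cmtm7 (1.60) and Spns1 (1.79). Higher levels had looser matches. The Entpd5 upstream site was nearest to Nomo1 (2.81 points, with 54.9% in heart and 48.3% in muscle), Taf10 (5.01) and Ndufa10 (6.68). For Plekha6 they were Wwc2 (2.08 points, with 22.1% in heart and 8.21% in muscle), Crtap (3.74) and Mccc2 (3.95). The Gpr137 downstream site had the farthest neighbours, Afg3l1 (5.77 points, with 60.8% in heart and 46.1% in muscle), Ptdss1 (7.27) and Glg1 (9.37).

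Genes that work with the members had few listed sites. Between heart and muscle 18 of them could be tested, of which 0 were called higher in heart and 1 lower, beside 5.35% and 10.0% of all sites, so these counts are too small to set the lists apart. For the CTLH ligase of Gid4, 2 of the other genes had 3 sites: Wdr26, a scaffold subunit, had 13.1% in heart and 12.2% in muscle at 181211399, and Rmnd5a, a RING subunit, 5.65% and 11.4%. Both Wdr26 sites lie 6 nt apart. For the nucleotidases and the calnexin cycle around Entpd5, 4 sites were tested and none called; Uggt1, the folding sensor of glycoproteins, had 12.95% in heart and 19.8% in muscle at 36140440, but 18.5% and 14.7% at 36142060 and 26.1% and 17.6% at 36142505. The median heart minus muscle difference of that list was 2.41 points. Entpd2 had 5.17% and 4.11%. Around Gpr137, 4 sites of lysosomal mTORC1 control were tested. Akt1s1, an inhibitory subunit of mTORC1, was lower in heart than in muscle, 19.2% against 30.3% (Fisher's exact adjusted p = 1.3e-29), and the other 3 were not called. Against the 4 tissues without heart, muscle was higher at all 3 testable sites of that list, Akt1s1, Tsc2 and Rptor, with a median difference of 26.7 points. Over all sites the median was 8.88 points and 42.9% were called higher. Rptor, the scaffold of mTORC1, had 64.4% in muscle and 63.0% in heart. Of the MAP4K and JNK list around Map4k4, 5 sites were tested and none was called between heart and muscle. Mapk8ip1 had 6.21% in heart and 11.3% in muscle. Mink1, a close relative of Map4k4, had 16.7% in heart and 24.7% in muscle, a difference of -7.99 points (Fisher's exact adjusted p = 0.0042) under the minimum of 10. In muscle against the 4 tissues without heart, Mink1 was called higher, by 18.3 points (Fisher's exact adjusted p = 1.8e-14), and Map2k7 was not. Map2k7, a kinase that activates JNK, had 29.6% of 71 reads in heart and 8% of 25 in muscle (Fisher's exact adjusted p = 0.0751). In heart against the other 5 tissues, Rptor and Map2k7 were called higher, of 5 testable sites in all these lists, beside 20.9% of all sites. Of the family and partners of Plekha6, Plekha4 had 2.174% in heart and 13.2% in muscle, and Tspan33 14.3% and 6.25%, and neither was called.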

How the data were processed

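Polyadenylated RNA of 12 libraries was bisulfite-treated, per the labels' protocols. The submitters' processing notes name the build mm10 and the tools HISAT2 2.10, bcl2fastq 2.17, SAMtools, cutadapt and Trimmomatic, without their roles. Per the file headers the authors deposited, for each site and tissue, the coverage as a count of reads, the level as a fraction, a p-value and a site call, a true or false value of another kind. No label or header states how libraries were combined or sites listed. The deposited counts start at 10 reads. Unconverted reads were recovered as level times coverage, which lay within 0.000179 of a whole number in all 9926 filled cells. With 1 column set per tissue, the model planned for libraries could not be fitted, and the test set for pooled columns, Fisher's exact test with Benjamini-Hochberg adjustment over all sites of a comparison, was used (SciPy 1.17.1, statsmodels 0.14.6), after it was tested on simulated data. The simulated reads were drawn independently, without spread between libraries or animals, so that check does not cover such spread. Coverage of 20 reads, an adjusted p under 0.05, a difference of 10 points and the same direction in summed reads and in the mean of levels were required. Upper limits at 0 unconverted reads are 3 reads of the coverage. No label says whether reads stand for separate molecules. Members and gene lists were chosen with earlier results of these data known. Named are all member sites and the 3 nearest profiles of each fully covered one (1 site per gene). Up to 3 most covered sites of each list were named, and also the Uggt1 site at 36142505. Markers were named as a check. Gene spans came from RefSeq GRCm38.p6, where all 5 members matched by symbol. Alternatives were coverage minimums of 10 and 50 reads, no minimum difference, a chi-square test, each of the 4 tissues left out, and summed reads.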

Additional observations from a re-analysis of the deposited data

How the results depend on the processing

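No paired analysis was possible because each tissue has 1 deposited column set with no values per library. For the same reason no replicate could be left out. A coverage minimum, the minimum difference and the choice of test leave a site's own difference unchanged. Its direction could therefore change only where a tissue was left out or reads were summed. Member sites that missed 50 reads dropped out of that repeat and are not counted. Within these limits, 141 of 150 repeats at the member sites kept the direction and the side of the threshold. The exceptions were Gpr137 without small intestine, given above, 6 that were called once no minimum difference was asked (Map4k4 in muscle against the mean of the 4 tissues, lung, small intestine and spleen, and the second Gid4 site against liver and small intestine), and Plekha6, whose small muscle difference changed sign to -0.0567 points without lung and -0.475 without small intestine. Over the whole table, muscle against the other 4 tissues gave 346 higher and 4 lower sites. With no minimum difference there were 540 and 44; with 50 reads 229 were higher, of 518 sites tested. Lower sites numbered 8 without lung, 7 without spleen and 9 with summed reads. With no minimum difference, 613 sites were higher in muscle than in liver and 94 lower, against 372 and 45; lower sites against lung were 37 in place of 19, and against small intestine 71 in place of 39. Heart against the other 5 then had 362 higher and 46 lower, in place of 168 and 3, and heart against muscle 258 higher and 370 lower, in place of 88 and 165. Muscle was highest of the 5 tissues at 70.7% of sites with 50 reads, and at 2 of the 2 member sites that reached them. Depth limits lung and spleen most, where 0 of 32 reads still allows a level of 9.38%.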
